A study of Mus musculus with 44 samples.

Results

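Two-cell embryos without any intact copy of Dppa2 and Dppa4 (HOM, Dppa2/4-/-) were compared with heterozygous embryos whose mothers had the same deletion (HET1, Dppa2/4+/-). The members were chosen by their labels alone: 10 HOM embryos from matings of maternal knockout females with heterozygous males, and 15 HET1 embryos from matings of maternal knockout females with wild-type males, which makes 25 of the 44 embryos sequenced. Both groups lacked the maternal supply, so the comparison asks what an intact paternal copy of the 2 genes adds at this stage. As background, Dppa2 and Dppa4 are small DNA-binding proteins with a SAP domain that bind chromatin together and, in embryonic stem cells, act upstream of Dux and of genes typical of the two-cell embryo. In the mouse, RNAs laid down by the oocyte are cleared during the first cell cycles, while a minor and then a major wave of transcription switches on the embryonic genome.

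All embryos came from natural matings on the C57Bl/6 background. In the mothers of both groups, the stretch from exon 2 of Dppa4 to exon 7 of Dppa2 had been flanked by loxP sites and deleted by a Cre recombinase under the Zp3 promoter, which is active in growing oocytes. The HET1 embryos therefore carried the deleted maternal allele and an intact paternal one, and the HOM embryos carried deleted alleles from both parents. The HOM embryos and 5 heterozygous littermates (HET2, the same genotype as HET1) came from the same 2 matings (4 of the HET2 embryos from mating 1 and 1 from mating 2), and the authors told the 2 apart by their Dppa2 and Dppa4 transcripts. There were also 14 wild-type embryos (WT) from mothers without the deletion. The HET1 embryos came from 2 matings (7 and 8 embryos) and the HOM embryos from 2 other matings (3 and 7 embryos), so that every HOM litter differed from every HET1 litter in its mating and in the genotype of its father as well as in its own genotype. Here the effects of litter and genotype cannot be told apart, and p-values measure the spread between embryos.

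Each embryo was sequenced as its own library by a Smart-seq2 protocol and is given here as log2 RPM (log2 of the reads scaled to the library total). A gene without reads had been given a value that depends on depth, so every value below 1.86 was raised to 1.86, the value of 0.9 read in the shallowest embryo. This value is called the floor, and differences of genes near it are understated. Total reads ranged from 418558 to 3048642 in the HOM embryos (median 803369) and from 247667 to 1830316 in the HET1 embryos (median 528166). Neither the total reads, nor the number of genes above the floor, nor the share of reads in the 50 most abundant genes, nor the mitochondrial share differed past the threshold (two-sided permutation tests with 100000 resamples, adjusted p over the 4 measures of 0.319, 0.319, 0.633 and 0.717). The mean number of genes above the floor was 9703 ± 593 (SD, n = 10) in the HOM embryos and 9181 ± 798 (SD, n = 15) in the HET1 embryos.

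The libraries matched their label as two-cell embryos. Of 6 markers of that stage, 4 had reads in every one of the 25 embryos, as had 6 of 6 oocyte RNAs, among them Gdf9, Bmp15 and Zp3. All 6 two-cell markers, among them Klf17 and Sp110, passed the filter on low values. The lowest embryo was at the floor for Zfp352 and Tcstv3 in both groups. For Zscan4d the lowest HOM embryo was at the floor and the lowest HET1 embryo at 2.50. Markers of cells that could be carried along were sparse. Of 18 cumulus and granulosa genes, 6 had no read in any of the 25 embryos, among them Fshr and Has2, and 1 passed the filter, Amhr2. Without Amhr2 the other 17 summed to between 1.27 and 14.4 RPM in the HOM embryos and between 0 and 22.2 RPM in the HET1 embryos. Of 15 oviduct, stroma and blood genes, 7 had no read and only Epcam and Pecam1 passed the filter. All 15 summed to a median of 158 RPM in the HOM and 84.8 RPM in the HET1 embryos. Without Epcam and Pecam1 these medians were 0.861 and 1.42 RPM. Amhr2 moved with the litters described below, with litter means of 5.41 and 3.86 in HET1 and 4.22 and 5.58 in HOM. The source of Amhr2, Epcam and Pecam1 reads was not tested.

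Dppa2 and Dppa4 followed the labels. The authors had assigned the HOM label from these transcripts, so the values describe the assignment and were not tested. Dppa2 lay between 5.33 and 8.43 in the HET1 embryos (median 6.10), and at the floor in 8 of the 10 HOM embryos, with 2.05 as the highest level. Dppa4 lay between 3.40 and 7.36 in the HET1 embryos (median 5.73), and at the floor in 9 of the 10 HOM embryos, with 2.02 as the highest level. In reads, 7 of the 10 HOM embryos had none for Dppa2 and the largest number was 7. For Dppa4, 7 HOM embryos had no read and the largest number was 5. No HOM embryo overlapped a HET1 embryo for either gene.

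Among the HET1 embryos, in which the paternal allele is the only intact copy, the level differed between the litters. Dppa2 lay between 6.00 and 8.43 in the 7 embryos of litter 1 and between 5.33 and 6.42 in the 8 embryos of litter 2. Dppa4 lay between 5.78 and 7.36 in litter 1 and between 3.40 and 5.73 in litter 2, without overlap. The median was 8.39 for Dppa2 and 7.12 for Dppa4 in the WT embryos, above the median of the HET1 embryos.

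**Figure D1:**
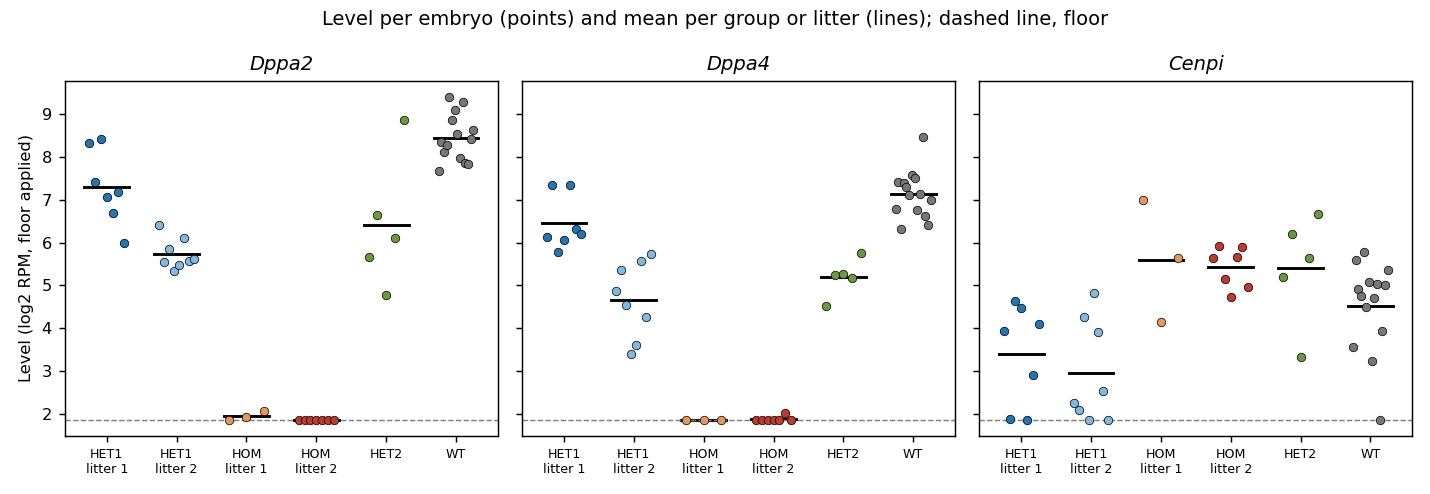
Level of Dppa2, Dppa4 and Cenpi in every embryo, in log2 RPM with the floor of 1.86 applied (dashed line), for the HET1 and HOM litters, the HET2 littermates of the HOM embryos and the WT embryos; horizontal lines are means. Dppa2 and Dppa4 are at or near the floor in the HOM embryos, and Cenpi is lower in the HET1 embryos (median 2.91) than in the HOM (5.64) and HET2 (5.64) embryos.

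Outside Dppa2 and Dppa4, 1 gene was higher and 0 genes were lower in the HOM embryos. Of 12177 genes above the floor in at least 5 of the 25 embryos, limma with Benjamini-Hochberg adjustment called 1 higher in HOM (0.00821% of the genes tested) and 0 lower (0%). At an unadjusted p under 0.05 there were 1692 genes (13.9%), of which 1168 were higher and 524 lower in HOM, and limma voom on the recovered reads found 0 past the threshold and 1040 at that unadjusted level. The count depended on the litters: without HET1 litter 1 it was 1757 higher and 716 lower, and without HOM litter 1 it was 302 and 136. With all litters the differences were small in most genes: the median was 0.09 with quartiles of -0.22 and 0.44, and 93.6% of the genes differed by less than 1 on the log2 scale. The precision was limited, with a median standard error of 0.37. For 43.8% of the genes the 95% confidence interval lay wholly within 1 log2 unit of no difference, and for 94.4% within 2 log2 units. Among the 2337 genes with a mean level of at least 6, the interval lay within 1 log2 unit for 61.0%.

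The gene called was Cenpi, a subunit of the constitutive centromere network that binds CENP-A chromatin and helps to build the kinetochore. It lies on chromosome X from 134308084 to 134362639 (GRCm38) on the forward strand, with no other annotated gene overlapping it. Its level lay between 4.16 and 7.0 in the HOM embryos (median 5.64) and between 1.86 and 4.82 in the HET1 embryos (median 2.91). The groups overlapped in part, since 2 of the 10 HOM embryos lay below the highest HET1 embryo. In reads this was 13 to 312 per HOM embryo (median 33) and 1 to 35 per HET1 embryo (median 5), so the HET1 levels rest on few reads. The difference was 2.32 (95% confidence interval 1.43 to 3.21, limma adjusted p 0.0343). The litter means were 5.60 and 5.43 in HOM against 3.40 and 2.95 in HET1, so both HOM litters lay above both HET1 litters.

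Within the HOM litters, embryos with and without the paternal Dppa2/4 allele had overlapping levels of Cenpi. The 5 HET2 embryos, which have the genotype of the HET1 embryos and share litters with the HOM embryos, lay between 3.33 and 6.68 (median 5.64), and the difference between HOM and HET2 embryos of the same litters was -0.09 (95% confidence interval -1.28 to 1.10). The sign of this difference rested on the 1 HET2 embryo of litter 2. In litter 1 the mean of Cenpi was 5.60 in HOM and 5.10 in the 4 HET2 embryos, and in litter 2 it was 5.43 in HOM beside 6.68 in the single HET2 embryo, without which the difference was 0.50 (-0.93 to 1.93). The WT embryos had a median of 4.83. The call was lost when litter was fitted as a random effect (difference 2.28, adjusted p 1) and when litter means were used as the replicates (2.34, adjusted p 1), which leaves 2 litters against 2, and also without HOM litter 2 (adjusted p 0.726) or without HET1 litter 2 (0.451; limma in each case). Settings unrelated to litter also ended it, with an adjusted p of 0.137 with only the 25 embryos in the fit, 0.133 without the floor, 0.059 with a higher floor, 0.0569 without the filter, 0.0612 after median re-centring and 0.258 with limma voom.

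After Cenpi, 4 genes had an adjusted p under 0.1 without passing the threshold, and these and the others named here were chosen after their values were seen. Mrpl54, a protein of the large mitochondrial ribosomal subunit, was above the floor in 9 of 10 HOM and 4 of 15 HET1 embryos (difference 1.30, limma adjusted p 0.0559). It met the filter of at least 5 embryos only through the HOM embryos, where it was higher, so its p-value is no support for a difference. Rer1, a receptor that returns membrane proteins to the endoplasmic reticulum, lay between 5.96 and 7.47 in HOM and between 3.08 and 6.90 in HET1 (difference 1.52, adjusted p 0.0664). Haus7, an X-linked subunit of the augmin complex that branches spindle microtubules, lay between 3.52 and 5.38 in HOM and between 1.86 and 4.61 in HET1 (difference 1.89, adjusted p 0.0958). The fourth, Gm35333, a predicted gene on chromosome 13, lay the other way (difference -1.31, adjusted p 0.0981). Further down the ranking, with other genes between them, were Pdk1 and Pramel6. Pdk1, a kinase that inhibits pyruvate dehydrogenase, lay between 2.15 and 5.60 in HOM and between 4.44 and 6.13 in HET1 (difference -1.54, adjusted p 0.165). Pramel6, a member of the Prame family, lay between 5.70 and 6.98 in HOM and between 3.06 and 6.43 in HET1 (difference 1.39, adjusted p 0.132).

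No gene was called between the HOM embryos and their own heterozygous littermates. In a limma fit of the 15 embryos of the 2 matings that kept the mating in the model, 0 of 12177 genes passed the threshold (0%). There were 553 at an unadjusted p under 0.05, and the lowest adjusted p was 0.851. This fit compares 10 with 5 embryos and is less precise, with a median standard error of 0.49. Without the 1 HET2 embryo of litter 2, an alternative chosen after the values had been seen, 0 genes passed and 300 were at an unadjusted p under 0.05, and only litter 1 then informs the difference. The 2 comparisons share the HOM embryos. For Mrpl54, Rer1, Haus7 and Pramel6 the differences between HOM and HET2 were 0.90, 1.17, 1.14 and 0.74, and for Pdk1 it was -0.96 (0.46, 1.33, 1.33, 0.97 and -0.79 without that embryo).

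Litters of the same genotype differed in many genes, in a fit of another form from that of the 2 groups, with each litter of each group as a level of its own. HET1 litter 2 differed from HET1 litter 1 in 3012 genes: 885 were higher in litter 2 (7.27% of the genes tested) and 2127 were lower (17.5%; limma, adjusted p under 0.05). The 3 HOM embryos of litter 1 differed from the 7 HOM embryos of litter 2 in 333 genes: 162 were higher (1.33%) and 171 lower (1.4%). Of these 333 genes, 251 were also called between the HET1 litters, which is 75.4% of the HOM calls and 8.33% of the HET1 calls. In all 251 genes HOM litter 1 differed from HOM litter 2 in the direction in which HET1 litter 2 differed from HET1 litter 1.

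The litters thus paired across genotypes. HOM litter 1 against HET1 litter 2 gave 0 genes higher (0%) and 0 lower (0%), with 956 at an unadjusted p under 0.05, and HOM litter 2 against HET1 litter 1 gave 0 (0%) and 0 (0%), with 710. The largest count of the 6 contrasts of litters was also between genotypes, since HOM litter 2 against HET1 litter 2 gave 2672 genes higher (21.9%) and 1285 lower (10.6%), while HOM litter 1 against HET1 litter 1 gave 8 higher (0.0657%) and 13 lower (0.107%). These 4 comparisons share litters with each other and with the comparison of all HOM with all HET1 embryos. Only 3 HOM embryos stand behind HOM litter 1, with a median standard error of 0.57 to 0.58 in its comparisons against 0.44 to 0.45 in those between HOM litter 2 and the HET1 litters. Since mating numbers of different crosses denote different matings, the pairing was seen in the values and is in no label. The mean level of the mitochondrially encoded genes moved with this pairing. With litter 1 before litter 2 it was 10.0 and 9.34 in HET1 and 9.37 and 9.88 in HOM. The test of the mitochondrial share given above pooled the litters of each group and does not show this. What the matched litters had in common was not tested.

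**Figure D2:**
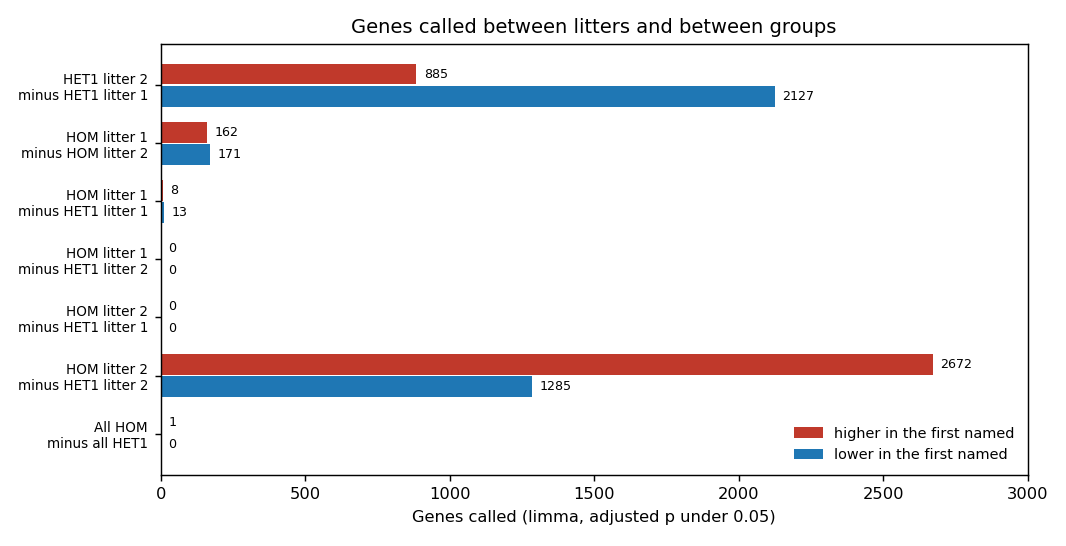
Number of genes called (limma, adjusted p under 0.05, of 12177 tested) between single litters and between all HOM and all HET1 embryos; red bars, higher in the first named, and blue bars, lower. The 2 litters of HET1 differ in 885 and 2127 genes, while HOM litter 1 against HET1 litter 2, and HOM litter 2 against HET1 litter 1, give 0.

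The same arrangement appeared in the similarity of whole embryos. Across the 2337 genes with a mean level of at least 6, Pearson's r between embryos of 1 litter had a median of 0.766 in HET1 (49 pairs) and 0.762 in HOM (24 pairs). Between litters of the same genotype the median fell to 0.544 in HET1 (56 pairs) and 0.576 in HOM (21 pairs). Between HOM litter 1 and HET1 litter 2 it was 0.763 (24 pairs), and between HOM litter 2 and HET1 litter 1 it was 0.741 (49 pairs), close to the values within a litter. It was 0.666 between HOM litter 1 and HET1 litter 1 (21 pairs) and 0.464 between HOM litter 2 and HET1 litter 2 (56 pairs). Over the same genes, the difference of litter 1 minus litter 2 in HOM correlated with that in HET1 with an r of -0.80. Single pairs varied widely, with r from 0.282 to 0.840 between the HOM litters and from 0.506 to 0.867 within them. The medians therefore do not hold for every embryo. Pairs share embryos and genes move together, so these values are descriptions only.

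**Figure D3:**
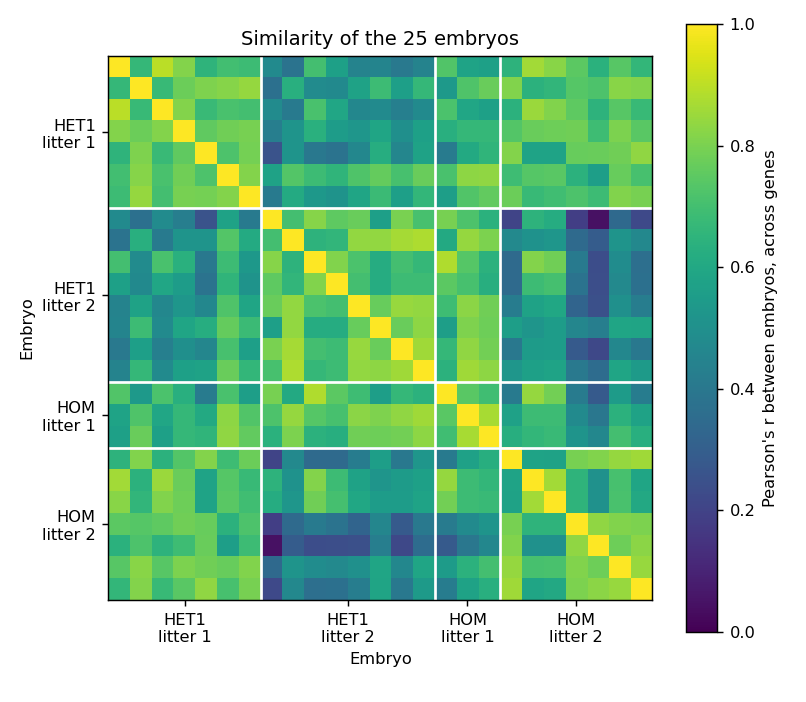
Pearson's r between each pair of the 25 embryos across 2337 genes with a mean level of at least 6 log2 RPM, ordered by group and litter (white lines). By the median, embryos of HOM litter 1 resemble HET1 litter 2 (r 0.763) and those of HOM litter 2 resemble HET1 litter 1 (0.741). Both lie above the median between the 2 litters of HET1 (0.544), while single pairs vary widely.

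No member of any of 31 gene lists was called between the HOM and HET1 embryos. Of all 12177 genes tested only 1 was called (0.00821%), so the absence of calls says nothing about the lists. The medians over the lists still departed from the 0.09 of all genes tested. That median was itself above 0, and the counts of members above 0 are to be read beside it. Positive medians were found for several lists, with 0.57 for nucleolar and rRNA processing genes (59 of 61 above 0), 0.54 for proteasome subunits (38 of 42), 0.42 for nuclear-encoded respiratory chain subunits (60 of 70), 0.41 for translation factors (42 of 53) and 0.34 for ribosomal proteins (71 of 83). Genes of the major wave had a median of 0.36 (28 of 36 above 0). The few tested markers of other cells lay in the same direction, with 0.59 for Amhr2, the 1 tested gene of the cumulus and granulosa list, and 0.86 and 0.51 for Epcam and Pecam1, the 2 tested genes of the oviduct, stroma and blood list (median 0.68), and their part in the result was not tested. Lists of genes active in the oocyte or early in the two-cell stage had negative medians, with -0.56 for two-cell genes (7 of 30 above 0), -0.47 for zona pellucida and secreted oocyte products (6 of 25), -0.43 for the subcortical maternal complex and related Nlrp genes (4 of 16) and -0.30 for maternal RNA decay and storage (11 of 32). Among the 2 most abundant genes of each list, some lay near 0 and others did not, and none passed the threshold: Npm1, a nucleolar chaperone, differed by 0.24 (95% confidence interval -0.18 to 0.66), Eif4e, the cap-binding translation factor, by 0.03, Rplp0, a ribosomal stalk protein, by -0.15 (-0.75 to 0.46), and Sp110, a nuclear body protein of the two-cell list, by -0.09 (-0.57 to 0.39). Omt2b, an abundant oocyte transcript, differed by -0.76 (-1.43 to -0.08, limma adjusted p 0.320). Btg4, an adaptor of the deadenylase that removes maternal mRNAs, differed by -1.11, Nlrp9c by -1.17, the proteasome activator Psme4 by -0.62 and the proteasome subunit Psma3 by 0.48, and in the Obox family Obox5 differed by -1.24 and Obox6 by 0.69.

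These medians were smaller when the litters were weighted equally, since 7 of the 10 HOM embryos came from litter 2. With equal weight the median difference was 0.40 for nucleolar genes, 0.34 for the proteasome, 0.20 for the respiratory chain, 0.04 for ribosomal proteins, -0.36 for two-cell genes and -0.21 for zona and secreted oocyte products, beside 0.07 for all genes tested.

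Between the 2 HET1 litters many members of these lists were called. Of 83 ribosomal protein genes, 36 were lower in HET1 litter 2 than in litter 1 and 0 were higher, with a median of -0.98. Of 42 proteasome genes 26 were lower and 0 higher (median -1.31), of 61 nucleolar genes 35 were lower and 0 higher (median -1.07), of 70 respiratory chain genes 27 were lower and 1 higher (median -0.94), and of 53 translation factors 21 were lower and 1 higher (median -1.05). These counts stand beside 17.5% lower and 7.27% higher of all genes, whose median was -0.23. In the opposite direction, 17 of 30 two-cell genes were higher in litter 2 and 1 was lower (median 1.44), as were 12 and 0 of 25 zona and secreted oocyte genes (median 1.20) and 9 and 0 of 16 genes of the subcortical maternal complex list (median 1.24). Between the HOM litters fewer genes were called, beside 1.33% higher and 1.4% lower of all genes. Lower in HOM litter 1 were 7 of 83 ribosomal protein, 6 of 42 proteasome, 8 of 70 respiratory chain, 5 of 53 translation factor and 1 of 61 nucleolar genes, and 1 proteasome gene was higher. Higher in HOM litter 1 were 6 of 30 two-cell, 9 of 25 zona and secreted oocyte and 2 of 16 subcortical maternal complex genes. HOM litter 2 against HET1 litter 2, with 21.9% higher and 10.6% lower of all genes, had 55 of 83 ribosomal protein, 42 of 61 nucleolar and 28 of 42 proteasome genes higher and 19 of 30 two-cell genes lower.

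**Figure D4:**
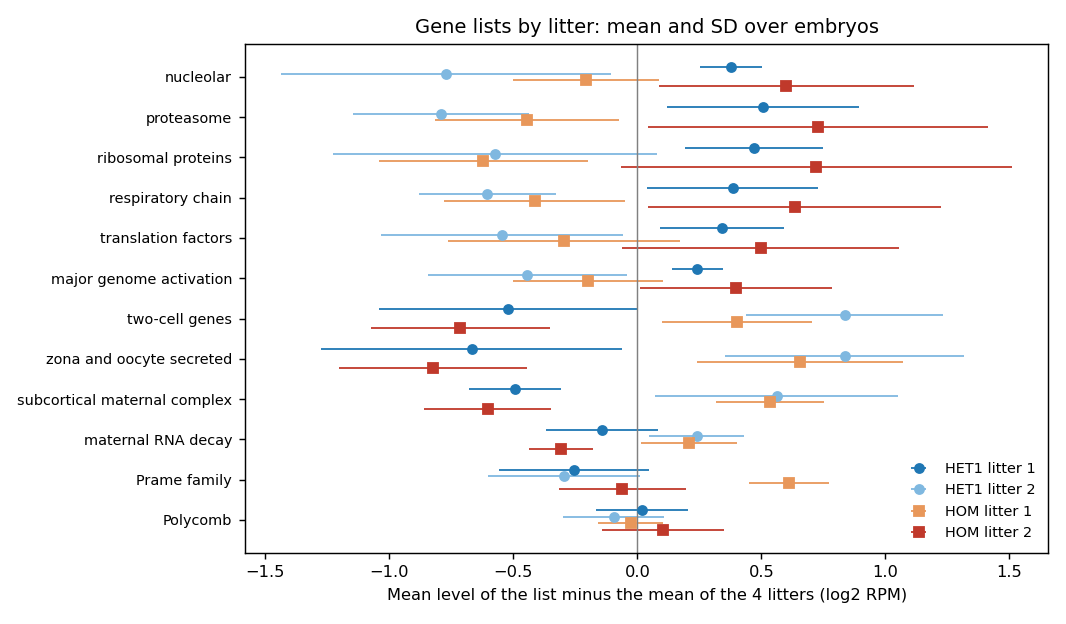
Mean level of 12 gene lists in each litter, as the difference from the mean of the 4 litters in log2 RPM; bars are the SD over embryos (n = 7 and 8 for the HET1 litters, 3 and 7 for the HOM litters). HET1 litter 1 and HOM litter 2 lie together on one side and HET1 litter 2 and HOM litter 1 on the other for most lists. The Polycomb list spreads little, with litter means of 5.82 and 5.71 in HET1 and 5.78 and 5.91 in HOM.

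The litters could also be seen apart embryo by embryo. The mean level of the proteasome list lay between 5.43 and 6.58 in the embryos of HET1 litter 1 and between 3.96 and 4.98 in those of HET1 litter 2, without overlap. In the HOM embryos it lay between 4.60 and 5.29 in litter 1 and between 5.00 and 6.89 in litter 2, with a small overlap. The subcortical maternal complex list ran the other way, with 4.74 to 5.27 in HET1 litter 1, 5.42 to 6.65 in HET1 litter 2, 5.76 to 6.15 in HOM litter 1 and 4.49 to 5.15 in HOM litter 2, and no overlap within either genotype.

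Single genes of these lists, chosen after their values were seen, changed strongly between litters. Obox5, an oocyte homeobox gene, lay between 5.61 and 7.67 in HET1 litter 1 and between 9.59 and 10.7 in HET1 litter 2 (difference 3.49, limma adjusted p 1.06e-09). It lay between 8.09 and 8.96 in HOM litter 1 and between 5.45 and 7.33 in HOM litter 2 (difference 2.04, adjusted p 0.0197). Obox8, of the same family, lay the other way, with litter means of 7.85 and 5.22 in HET1 and 5.20 and 8.04 in HOM (adjusted p 7.72e-06 and 0.00428 by limma).

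Btg4 had litter means of 8.22 and 10.7 in HET1 and 9.98 and 7.80 in HOM, and both contrasts were called (limma adjusted p 2.23e-07 and 0.00531). Tcstv1, a gene of the two-cell stage, had litter means of 2.93 and 7.17 in HET1 and 5.14 and 2.22 in HOM (adjusted p 3.02e-07 and 0.0280 by limma). Rpl14, a protein of the large ribosomal subunit, had litter means of 5.98 and 2.97 in HET1 and 3.02 and 6.33 in HOM (limma adjusted p 8.66e-06 and 0.00412). Psmb4, a subunit of the proteasome core, had 7.22 and 4.26 in HET1 and 4.86 and 7.47 in HOM (limma adjusted p 2.32e-06 and 0.0156). In each of these 6 genes HET1 litter 1 lay nearest to HOM litter 2, and HET1 litter 2 nearest to HOM litter 1. Obox, Tcstv, Zscan4 and Nlrp genes have near-identical copies. Reads that fit several copies can be lost where only confidently mapped reads are kept, so that values of single members are uncertain.

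The mean of the Prame family did not follow the litters in this way, although its member Pramef25, chosen after its values were seen, did, with litter means of 2.24 and 4.63 in HET1 and 5.17 and 2.36 in HOM (limma adjusted p 0.00176 and 0.0372). The 12 tested Prame family genes had a median difference of 0.40 between HOM and HET1 embryos (10 of 12 above 0) and of 0.49 with litters weighted equally. Their mean level lay between 3.57 and 4.66 in the HOM embryos and between 3.05 and 4.22 in the HET1 embryos. The HOM litters differed, with 4.37 to 4.66 in the 3 embryos of litter 1 and 3.57 to 4.24 in litter 2. Only litter 1 thus lay above every HET1 embryo. The chromatin lists lay near the median of all genes: 0.08 for Polycomb (31 genes), 0.10 for the H3K4 methyltransferase complexes (22), 0.05 for DNA methylation (19) and 0.18 for heterochromatin repressors (27). Germline genes silenced by methylation had a median of 0.17 (29 genes), pluripotency factors 0.08 (22) and the 5 of 32 developmental genes that passed the filter -0.08. Gata4, one of these 5 and a transcription factor of endoderm and heart, differed by 0.66 (95% confidence interval -0.22 to 1.53). Duxf3, the Dux gene of the mouse, had reads in 1 of 10 HOM and 3 of 15 HET1 embryos with at most 9 reads, so a difference was not detectable at this depth.

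The embryos were divided by their reads of Y-linked genes at a minimum of 25, and both groups held embryos on either side. Of the 15 HET1 embryos, 12 had at least 25 such reads and the other 3 had at most 1. Of the 10 HOM embryos, 5 had at least 43 and the other 5 had at most 6. All 7 embryos of HET1 litter 1 and 5 of the 8 of litter 2 reached 25 Y-linked reads, as did 2 of 3 and 3 of 7 in the HOM litters. The share of embryos that reached 25 did not differ past the threshold (Fisher's exact test, two-sided, p = 0.194).

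Of 383 X-linked genes tested, 77 (20.1%) were higher in HOM at an unadjusted p under 0.05, beside 1091 of 11776 autosomal genes (9.26%), a difference in share that was not tested, and the median difference was 0.17 on the X chromosome and 0.09 on the autosomes. When the level of Y-linked reads was added to the fit, an alternative chosen after the values had been seen, 60 X-linked (15.7%) and 1139 autosomal genes (9.67%) were higher at that unadjusted level, the median was 0.12 on the X chromosome and 0.10 on the autosomes, and Cenpi had a difference of 2.25 (limma adjusted p 0.075). X-linked reads made up 2.38% to 5.07% of nuclear reads in the HOM embryos (median 3.48%) and 2.17% to 5.00% in the HET1 embryos (median 2.92%). Araf, Magt1, Dkc1 and Nono, X-linked genes chosen after their values were seen, differed by 1.76, 1.97, 1.07 and 1.24, with adjusted p between 0.165 and 0.176 in limma. Between the HET1 litters Magt1, Araf and Dkc1 were lower in litter 2 past the threshold (limma adjusted p 5.26e-05, 0.00491 and 0.042), and Nono was not (0.38). On the log2 scale, with litter 1 before litter 2, Magt1 had mean levels of 5.69 and 2.95 in HET1 and 5.09 and 6.66 in HOM, and Araf of 4.90 and 3.19 in HET1 and 4.83 and 6.14 in HOM, so that HET1 litter 1 lay above HOM litter 1 for both. Dkc1 had 7.84 and 7.06 in HET1 and 7.88 and 8.76 in HOM, and Nono 5.42 and 4.90 in HET1 and 6.04 and 6.53 in HOM.

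Xist, the RNA that coats the X chromosome to be silenced, had at least 36 reads in 4 of the 5 HOM embryos with fewer than 25 Y-linked reads and 1 read in the fifth, and no read in the other 5. These 4 HOM embryos all came from litter 2. None of the 15 HET1 embryos had more than 1 Xist read, including the 3 with fewer than 25 Y-linked reads. Heterozygous and wild-type embryos below that minimum had Xist reads as well, with 1 to 295 in the 3 HET2 embryos, the highest in the only HET2 embryo of litter 2, and 0 to 148 in 8 WT embryos. The difference in Xist between HOM and HET1 was 2.07 (95% confidence interval 0.76 to 3.38), which did not pass the threshold (limma adjusted p 0.246). Xist met the filter of at least 5 embryos above the floor only through the 4 HOM embryos in which it was high. Its difference therefore describes those embryos and is no support for a change.

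**Figure D5:**
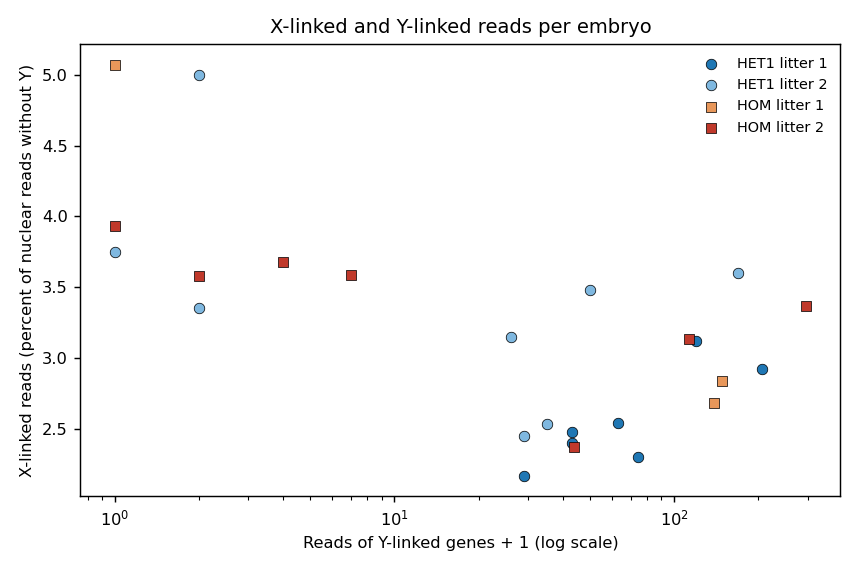
Share of X-linked reads among nuclear reads without Y-linked genes (percent) against the reads of Y-linked genes plus 1 (log scale) in each of the 25 embryos. The embryos fall apart into those with at least 25 Y-linked reads (12 HET1 and 5 HOM) and those with at most 6 (3 HET1 and 5 HOM), and HET1 litter 1 holds only the former.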

How the data were processed

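The authors trimmed reads with Trim Galore 0.6.5 and cutadapt 2.3, mapped them to GRCm38 with HISAT2 2.1.0, kept MAPQ of at least 20, and quantified mRNAs in SeqMonk. The deposited values are log2 RPM for 35269 genes, in which a gene without reads stands at 0.9 read. Read numbers were recovered from that step, and 99.9992% came out whole (tolerance 0.05 read); they reflect counting error only. No 2 columns were identical.

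Values were raised to a floor of 1.86. Genes above it in at least 5 of 25 embryos entered limma 3.58.1 (R 4.3.3, trend), with the 4 groups in 1 model, Benjamini-Hochberg adjustment and a threshold of 0.05, leaving out Dppa2 and Dppa4. The paper's text and figure legends name no test for calling genes in these values. The fit was tested on simulated data without litter effects, so that test says nothing about how the fit behaves where litters differ. Litter contrasts used each litter of each group as a level and were chosen after the values had been seen. The members and gene lists were chosen with earlier results of these data known. Genes named were Dppa2, Dppa4, called genes whose 4 litter differences shared 1 sign, and the leading called or else most abundant members of each list; others are said to be chosen after their values were seen. Alternatives covered floor, filter, scaling, samples fitted, litter, mating number, weights and depth. Figures were drawn with matplotlib 3.10.9.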

Additional observations from a re-analysis of the deposited data

Results flagged for a closer look

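In the HOM embryos, 110 sets of 10 values (named genes, list means and library measures) were searched for 1 embryo far from the others, by the gap to the nearest embryo against the whole range, and 5 were found; chance gives about 1 in 20. Dppa2 had its highest level at 2.05 and Dppa4 at 2.02 in 1 embryo each, while nearly all others were at the floor. The HOM label was assigned from these 2 transcripts. With most values tied at the floor any value above it stands out, so these flags are not comparable with that rate. Gata4 had a lowest level of 4.76, Magt1 of 3.35, and the mean of the sex chromosome marker list a lowest value of 1.86, the floor. The sex chromosome markers were at the floor in the embryo with neither Y-linked reads nor more than 1 read of Xist.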

How the results depend on the processing

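The count of 1 gene higher and 0 lower in HOM rests on which litters are compared. Leaving out 1 litter at a time gave between 0 and 1757 genes higher and between 0 and 716 lower. The largest counts came without HET1 litter 1 (1757 and 716), followed by those without HOM litter 1 (302 and 136); without HOM litter 2 there was 1 higher, another gene than Cenpi, and without HET1 litter 2 there was 0. A replicate block for mating number left 3 genes higher (Cenpi, Rer1 and Mrpl54), and with the numbers crossed, an alternative added after the values had been seen, there was 0; the mating numbers of different crosses denote different matings and pair nothing. With total reads as a covariate 4 were higher and 1 lower. The count of higher genes was 0 without the floor, with a higher floor, without the filter, with only the 25 embryos fitted, after median re-centring, with litter as a random effect (169 genes at an unadjusted p under 0.05) or litter means as replicates (56), with voom, and with the Y-linked level as a covariate; the filter of 10 embryos and array weights kept Cenpi. The difference of Cenpi stayed between 1.55 and 2.53, and its adjusted p ranged from 0.000498 to 1. Of 72 named genes, 22 kept the sign of their difference in all 18 alternatives and 50 did not. Leaving out litters changed no call on depth or composition. Genes with few reads are the least certain, and levels near the floor understate differences.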
